A study of Mus musculus with 8 samples.

Results

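Cxcl1, Cxcl2 and Cxcl3 are a family of secreted chemokines that attract neutrophils, and their transcripts were followed here across 7 stimuli of mouse macrophages. The genes were found by matching their symbols to Ensembl identifiers, which gave 3 genes of the 36806 listed in each deposited table. Poly(A) RNA was sequenced from bone marrow-derived macrophages of C57BL/6 mice at day 7 of differentiation, grown in medium that held serum and the conditioned medium of L929 fibroblasts. Each stimulated culture received a single agent for 4 h. Toll-like receptors were addressed by the lipopeptide MALP2 at 1 ng/ml (Tlr2 with Tlr6) and CpG DNA at 100 nM (Tlr9). The inflammatory cytokines were IL1b (interleukin 1 beta) and TNFa (tumour necrosis factor), both at 10 ng/ml. The remaining cytokines were IFNg (interferon gamma) at 100 ng/ml, IL4 (interleukin 4) at 10 ng/ml and TGFb1 (transforming growth factor beta) at 1 ng/ml. The same untreated macrophage library, with no agent added, was the reference in all 7 comparisons, so these comparisons are not independent. There was 1 library for each of the 8 conditions. No p-value was therefore computed, differences could not be set against replicates, and a bulk library cannot tell a change in the number of expressing cells from a change in RNA per cell.

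As background, these chemokines carry the Glu-Leu-Arg (ELR) motif ahead of their CXC cysteines and bind Cxcr2 on neutrophils. Resident macrophages release them early after infection or injury, and the neutrophils that follow the gradient leave the blood at the site. Their transcription is a known target of NF-kB, the factor that Toll-like receptors, the IL1 receptor and the TNF receptor activate, and their mRNAs are known to be short-lived because AU-rich stretches in the 3′ untranslated region are bound by decay factors such as Zfp36.

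All 3 genes lie in a chemokine cluster on mouse chromosome 5. The deposited mm9 loci are 91215128 to 91217112 for Cxcl3 (ENSMUSG00000029379), 91320266 to 91322141 for Cxcl1 (ENSMUSG00000029380) and 91332896 to 91334935 for Cxcl2 (ENSMUSG00000058427). The gap between Cxcl1 and Cxcl2 is 10754 bp, and that between Cxcl3 and Cxcl1 is 103153 bp.

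The 140 bases before the start of each gene, taken as the GENCODE start for Cxcl1 and Cxcl2 and the RefSeq start for Cxcl3, whichever came first, are printed because all 3 genes were higher after the same 4 stimuli described below. They are RefSeq promoter sequence in GRCm38.p6, plus strand, 5′ to 3′. Capitals mark matches on the printed strand to the kB-type motif GGNNNTTCC and to the TATA-like motif NATAAAAG.
Cxcl1 (chr5:90891101-90891240): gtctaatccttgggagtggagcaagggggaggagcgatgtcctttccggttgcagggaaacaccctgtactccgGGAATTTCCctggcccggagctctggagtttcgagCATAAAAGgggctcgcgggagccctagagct
Cxcl2 (chr5:90903731-90903870): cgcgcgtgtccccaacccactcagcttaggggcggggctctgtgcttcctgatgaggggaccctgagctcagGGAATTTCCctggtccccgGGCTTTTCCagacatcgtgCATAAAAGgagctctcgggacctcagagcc
Cxcl3 (chr5:90785961-90786100): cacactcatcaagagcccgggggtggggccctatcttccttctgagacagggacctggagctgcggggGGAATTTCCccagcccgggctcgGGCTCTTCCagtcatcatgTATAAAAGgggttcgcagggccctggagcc

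The longest run of bases shared by the 3 stretches was GGGAATTTCCC, an NF-kB-type sequence. It began at -67 in Cxcl1, -69 in Cxcl2 and -75 in Cxcl3, with the first base of the GENCODE gene counted as 0. Of 27025 promoter windows of 300 bases, 1 for each gene, 11 held GGGAATTTCCC on either strand (0.0407%), the 3 members included. The looser GGNNNTTCC was present in 18.4% of windows, and in each member it matched inside the shared run on both strands at the same bases. Cxcl2 and Cxcl3 had a further match on the printed strand, GGCTTTTCC at -49 and GGCTCTTCC at -51, while Cxcl1 had its further match on the other strand, GGTGTTTCC at -85 to -77. The TATA-like motif began at -31 in Cxcl1, -30 in Cxcl2 and -32 in Cxcl3, and 5.69% of windows held it. On either strand, the windows of the 3 genes held no match to TGANTCA (AP-1, in 7.93% of all windows), TTGCNNAA (C/EBP, 10.8%), TTCNNNGAA (GAS, 8.47%) or GAAANNGAA (ISRE-type, 8.57%). The motifs were chosen with the sequences in view, and a match is a description of letters, not a measured site.

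**Figure D1:**
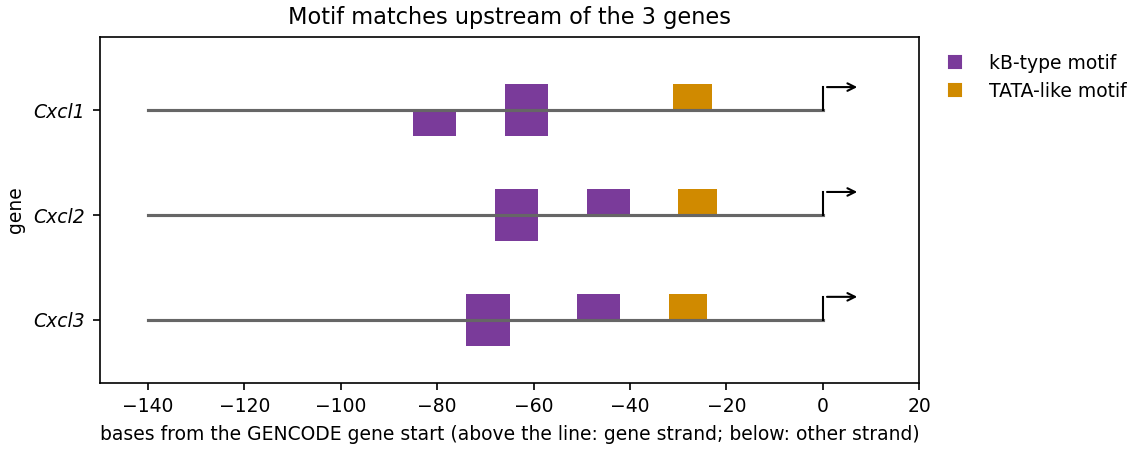
Motif matches in the 140 bases before Cxcl1, Cxcl2 and Cxcl3, by distance in bases from the GENCODE gene start (0), with boxes above the line on the gene strand and below it on the other strand. A kB-type motif on the gene strand begins at -66, -68 and -74 in Cxcl1, Cxcl2 and Cxcl3, and the TATA-like motif begins between -32 and -30 in all 3 genes.

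The 3′ untranslated regions, read from GENCODE transcripts, held 7 copies of the pentamer ATTTA over 595 bases in Cxcl1, 11 copies over 737 bases in Cxcl2 and 5 copies over 648 bases in Cxcl3. The median of 20310 coding genes was 1 copy, and as many copies were found in 12.2% of these genes for Cxcl1, 4.95% for Cxcl2 and 20.1% for Cxcl3. The densest 30 bases of each are shown as DNA letters because AU-rich sites of this kind are where decay factors bind, with ATTTA in capitals.
Cxcl1: gagggtcctATTTATTTAtgtATTTATTTA
Cxcl2: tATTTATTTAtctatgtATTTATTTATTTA
Cxcl3: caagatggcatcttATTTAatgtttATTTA

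These stretches held 4 pentamers in Cxcl1, 5 in Cxcl2 and 2 in Cxcl3. Per kilobase, ATTTA occurred 11.8 times in Cxcl1, 14.9 times in Cxcl2 and 7.72 times in Cxcl3, and a density as high was found in 0.763%, 0.359% and 2.63% of the coding genes for Cxcl1, Cxcl2 and Cxcl3. The coding sequences of Cxcl2 and Cxcl3 were 89.7% identical and their transcripts shared an exact run of 110 bases. Cxcl1 was 75.7% identical to Cxcl2 and 72.7% identical to Cxcl3 over the coding sequence, with no shared run above 23 bases. The length of the reads is unknown here, and reads from the run shared by Cxcl2 and Cxcl3 could not be assigned to one gene if they were shorter than it. The separate values of these 2 genes are therefore uncertain.

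Values are FPKM, which is already per transcript length, and parentheses hold the authors' lower and upper confidence bounds within a library. The steps between low values give relative depth only: a single read counted for 2.04 times the FPKM after IFNg that it did untreated, and for 1.04 to 1.44 times after the remaining stimuli, so IFNg had the fewest reads. Absolute depth is unknown. The median log2 change of genes at 1 FPKM or above in the stimulated and untreated library ranged from -0.10 to -0.071. Of 8 macrophage markers, 7 were above 1 FPKM in every library (Csf1r 1045 to 1543 FPKM), and Lyz2 was listed at 0 FPKM in 5 libraries and at 11380 FPKM or more in the other 3, so that its 0 is not read as absence. The 12 neutrophil markers summed to 421 FPKM after IFNg, 358 after MALP2, 277 after CpG, 271 after TNFa, 237 after IL1b, 220.5 after TGFb1 and 157 after IL4, against 269.5 FPKM untreated. S100a8 and S100a9 made up most of these sums. Of the other markers, Ly6g was at 5.41 FPKM after IFNg and 0.111 to 0.822 FPKM after the other 6, against 1.88 FPKM untreated. Camp was at 7.75 FPKM after MALP2 and 6.87 after CpG, against 3.36 FPKM untreated. Ngp was at 41.8 FPKM after IFNg, 34.2 after MALP2 and 29.1 after CpG, against 24.8 FPKM untreated. Cxcr2 was also higher after MALP2 and CpG than untreated, at under 1 FPKM. In contrast, Ly6g, Mpo, Elane, Ltf, Retnlg and Mmp8 were lower after both MALP2 and CpG. Ltf, for example, was at 4.31 FPKM after MALP2 and 4.03 after CpG, against 6.00 FPKM untreated. Cebpe was higher after MALP2 and lower after CpG. Markers at 1 FPKM or more numbered 10 of 12 after IFNg and 6 of 12 after each other stimulus, against 10 of 12 untreated, and the part of such cells in the results was not tested. The 10 stromal and endothelial markers summed to 90.1 FPKM after IFNg and 44.1 to 52.0 FPKM after the other 6, against 42.3 FPKM untreated. Of the B, T and NK cell markers and of the erythroid markers measured, none reached 1 FPKM in any library.

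By point value, the Toll-like receptor ligands gave the highest levels of all 3 chemokines. After MALP2, Cxcl2 was at 528 FPKM (196 to 860) in the stimulated library, against 2.01 FPKM (0.602 to 3.41) in the untreated library. Cxcl1 was at 149 FPKM (57.8 to 241) after MALP2, against 0.663 FPKM (0.159 to 1.17) untreated. Cxcl3 was at 80.3 FPKM (32.1 to 128) after MALP2, against 0.251 FPKM (0.0450 to 0.457) untreated. The bounds of the stimulated and untreated libraries did not overlap for any of the 3 genes. On the FPKM + 1 scale, which understates the change of genes this low at rest, Cxcl2 was 176-fold higher (log2 change 7.46), Cxcl1 90.5-fold higher (6.4998) and Cxcl3 65.0-fold higher (6.02). From the highest change down, they ranked 16, 18 and 23 among 12722 genes. The order of the 3 depends on the scale, since plain FPKM ratios were 320 for Cxcl3, 263 for Cxcl2 and 226 for Cxcl1. These ratios rest on untreated levels of 0.251 to 2.01 FPKM. All 3 were at least 2-fold higher after MALP2, as were 9.53% of all genes tested, and all 3 had bounds apart in that direction, as did 5.67%. The authors' deposited table calls all 3 significant, with q listed as 0, and 7.3% of the genes tested were higher and called.

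After CpG, Cxcl2 was at 326 FPKM (116 to 537), against 2.01 FPKM (0.591 to 3.42) untreated. Cxcl3 was at 116 FPKM (46.4 to 186) after CpG, against 0.251 FPKM (0.0450 to 0.457) untreated. Cxcl1 was at 96.9 FPKM (38.9 to 155) after CpG, against 0.662 FPKM (0.162 to 1.16) untreated. Again the stimulated bounds lay above the untreated ones for each gene. The log2 changes were 6.77 for Cxcl2, 6.55 for Cxcl3 and 5.88 for Cxcl1, which are 109-fold, 93.9-fold and 58.9-fold on the FPKM + 1 scale and rank 17, 21 and 30 of 12769. Plain FPKM ratios after CpG were 464 for Cxcl3, 163 for Cxcl2 and 146 for Cxcl1, again another order. All 3 genes were at least 2-fold higher after CpG, as were 9.43% of genes tested. Bounds lay apart upward for 6.14% of genes tested. In the authors' deposited table all 3 are called after CpG with q listed as 0, beside 7.71% of genes higher and called.

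**Figure D2:**
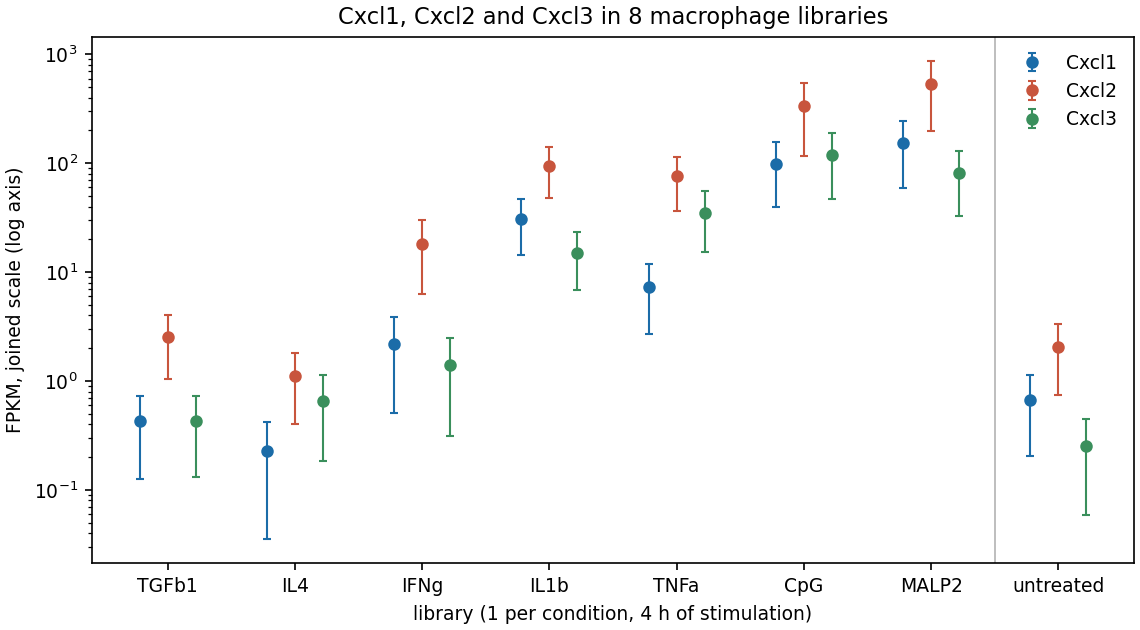
FPKM of Cxcl1, Cxcl2 and Cxcl3 in the 7 stimulated libraries and the untreated library, on a log axis, after the tables were joined through their untreated values; points are single libraries and bars the authors' confidence bounds. By point value, Cxcl2 is the highest of the 3 in every library, up to 538 FPKM after MALP2, against 2.05 FPKM untreated. Its bounds overlap those of another member untreated and after IL4, TNFa, MALP2 and CpG.

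By point value, the inflammatory cytokines IL1b and TNFa came next, and they differed in which chemokine stood second to Cxcl2. Bounds overlapped between IL1b and CpG for Cxcl1 and Cxcl2, and between TNFa and each Toll-like receptor ligand for Cxcl3. The bounds of Cxcl1 and Cxcl3 overlapped within the IL1b library and were apart within the TNFa library. After IL1b, Cxcl2 was at 95.1 FPKM (48.2 to 142), against 2.07 FPKM (0.841 to 3.30) untreated. Cxcl1 was at 30.9 FPKM (14.7 to 47.2) after IL1b, against 0.683 FPKM (0.229 to 1.14) untreated. Cxcl3 was at 15.2 FPKM (6.92 to 23.5) after IL1b, against 0.259 FPKM (0.0667 to 0.451) untreated. No bounds overlapped between the IL1b and untreated libraries. The log2 changes were 4.97 for Cxcl2, 4.25 for Cxcl1 and 3.69 for Cxcl3, at ranks 27, 44 and 55 of 12768 genes. By plain FPKM ratio Cxcl3 was highest at 58.7, with Cxcl2 at 45.9 and Cxcl1 at 45.3. All 3 were at least 2-fold higher, against a background of 7.29% of genes tested, and bounds lay apart upward for 5.83%. The authors' deposited table lists a q of 0 for each, and 7.1% of genes tested were higher and called.

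After TNFa, Cxcl2 was at 75.8 FPKM (36.7 to 115), against 2.05 FPKM (0.749 to 3.34) untreated. Cxcl3 was at 35.3 FPKM (15.2 to 55.4) after TNFa, against 0.256 FPKM (0.0590 to 0.452) untreated. Cxcl1 was at 7.35 FPKM (2.71 to 11.98) after TNFa, against 0.675 FPKM (0.204 to 1.15) untreated. Stimulated and untreated bounds were apart for all 3, but for Cxcl1 by a smaller margin. The log2 changes were 4.85 for Cxcl3 (28.9-fold, rank 34 of 12825), 4.66 for Cxcl2 (25.2-fold, rank 37) and 2.32 for Cxcl1 (4.98-fold, rank 217). With the nearest bounds in place of the point values, the change of Cxcl1 after TNFa was 0.79, under 2-fold. All 3 were at least 2-fold higher after TNFa, beside 8.92% of genes tested, and bounds lay apart upward for 6.36%. The q in the authors' deposited table is 1.05e-05 for Cxcl1 and is listed as 0 for Cxcl2 and Cxcl3, all called, beside 7.93% of genes higher and called.

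After IFNg, Cxcl2 was past the 2-fold size, and Cxcl1 and Cxcl3 were below it. Cxcl2 was at 17.2 FPKM (5.96 to 28.4) after IFNg, against 1.93 FPKM (0.544 to 3.32) untreated, a log2 change of 2.63 (6.21-fold, rank 276 of 12813) with bounds that did not overlap. Cxcl1 was at 2.09 FPKM (0.485 to 3.69) after IFNg, against 0.637 FPKM (0.139 to 1.14) untreated. Cxcl3 was at 1.33 FPKM (0.298 to 2.36) after IFNg, against 0.241 FPKM (0.0374 to 0.445) untreated. For Cxcl1 and Cxcl3 the bounds of the IFNg and untreated libraries overlapped, and the log2 changes on the FPKM + 1 scale were 0.91 for each. With a pseudocount of 0.1 FPKM they were 1.57 for Cxcl1 and 2.06 for Cxcl3, past 2-fold, and with the nearest bounds that of Cxcl2 was 0.69, under 2-fold. Thus 1 of 3 members was at least 2-fold higher after IFNg, beside 10.7% of all genes tested, and 6.58% had bounds apart upward. In the authors' deposited table the IFNg comparison is called for Cxcl2 (q 0.000126) and Cxcl3 (q 0.0216) and not for Cxcl1 (q 0.128). After IFNg 8.51% of genes were higher and called. The neutrophil and stromal marker sums were both highest in the IFNg library, and their part in these values was not tested.

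After IL4 and TGFb1, none of the 3 genes differed by 2-fold on the FPKM + 1 scale. Cxcl2 was at 1.16 FPKM (0.420 to 1.90) after IL4, against 2.13 FPKM (0.685 to 3.57) untreated. Cxcl1 was at 0.236 FPKM (0.0369 to 0.434) after IL4, against 0.702 FPKM (0.195 to 1.21) untreated. Cxcl3 was at 0.685 FPKM (0.193 to 1.18) after IL4, against 0.266 FPKM (0.0544 to 0.477) untreated. Every pair of bounds overlapped, with point values lower after IL4 for Cxcl1 and Cxcl2 and higher for Cxcl3 (log2 changes -0.46, -0.53 and 0.41). With a pseudocount of 0.1 FPKM, Cxcl1 (-1.26) and Cxcl3 (1.10) passed 2-fold after IL4. After TGFb1, Cxcl2 was at 2.62 FPKM (1.07 to 4.17), against 2.11 FPKM (0.841 to 3.37) untreated. Cxcl1 was at 0.438 FPKM (0.129 to 0.746) after TGFb1, against 0.695 FPKM (0.233 to 1.16) untreated. Cxcl3 was at 0.443 FPKM (0.137 to 0.750) after TGFb1, against 0.263 FPKM (0.0678 to 0.459) untreated. These bounds overlapped too, and the log2 changes were 0.22 for Cxcl2, -0.24 for Cxcl1 and 0.19 for Cxcl3. None of the 6 comparisons is called in the authors' deposited table, whose q ranges from 0.178 to 0.824. That table calls 8.39% of genes higher and 10.8% lower after IL4, and 7.64% higher and 9.83% lower after TGFb1. Of all genes tested, 9.86% were at least 2-fold higher and 11.9% lower after IL4, and 7.15% higher and 9.15% lower after TGFb1. Bounds lay apart upward for 6.5% and downward for 8.24% after IL4, and for 6.2% and 7.99% after TGFb1. Cxcl1 and Cxcl3 were under 1 FPKM in both libraries of both comparisons, so that 2 of the 3 genes did not pass the floor there. At such levels a difference was not detectable within the bounds.

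**Figure D3:**
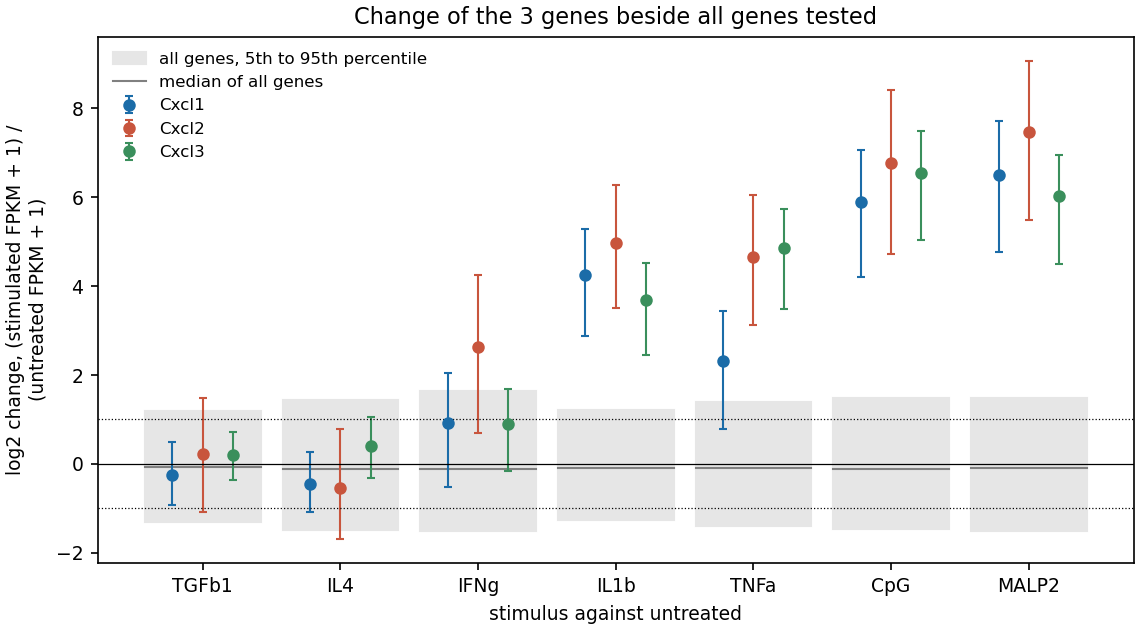
Log2 change of Cxcl1, Cxcl2 and Cxcl3 after each stimulus against untreated, on the FPKM + 1 scale; bars run between the changes given by the extreme confidence bounds, grey boxes span the 5th to 95th percentile of all genes tested, and dotted lines mark 2-fold. All 3 genes lie above the grey box after IL1b, TNFa, CpG and MALP2, and Cxcl2 alone lies above it after IFNg.

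To order the libraries, the tables were brought to the untreated scale of the TNFa table, since the untreated values of the 7 tables differ by a single factor each. Cxcl1 was highest after MALP2 (152 FPKM), followed by CpG (98.7), IL1b (30.5), TNFa (7.35), IFNg (2.21), untreated (0.675), TGFb1 (0.425) and IL4 (0.227). In that order IL1b and TNFa were the only neighbours whose bounds did not overlap. Cxcl2 followed the order MALP2 (538 FPKM), CpG (332), IL1b (93.9), TNFa (75.8), IFNg (18.2), TGFb1 (2.54), untreated (2.05) and IL4 (1.11). Its neighbours were apart between TNFa and IFNg and between IFNg and TGFb1. Cxcl3 stood at 119 FPKM after CpG, then 81.7 after MALP2, 35.3 after TNFa, 15.0 after IL1b, 1.41 after IFNg, 0.658 after IL4 and 0.430 after TGFb1, with 0.256 FPKM untreated. For Cxcl3 the neighbours were apart between IL1b and IFNg. Over the 21 pairs of stimulated libraries, bounds were apart in 16 pairs for Cxcl1, 17 for Cxcl2 and 14 for Cxcl3. The share of all genes with bounds apart was computed only for IL1b with TNFa and for CpG with MALP2. These counts are therefore not read as a result about the 3 genes.

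The cytokine pair placed Cxcl1 and Cxcl3 on opposite sides. Cxcl1 was at 30.5 FPKM (14.5 to 46.6) after IL1b, against 7.35 FPKM (2.71 to 11.98) after TNFa, 4.16 times as much and with bounds apart. Cxcl3 was at 15.0 FPKM (6.84 to 23.2) after IL1b, against 35.3 FPKM (15.2 to 55.4) after TNFa, or 0.426 times as much, with overlapping bounds. Cxcl2 was at 93.9 FPKM (47.6 to 140) after IL1b, against 75.8 FPKM (36.7 to 115) after TNFa, with bounds that overlapped widely. Among 12269 genes ranked from the highest ratio of IL1b over TNFa down, on the FPKM + 1 scale, Cxcl1 ranked 54, Cxcl2 1421 and Cxcl3 12118. Bounds were apart with IL1b higher for 0.538% of these genes and with IL1b lower for 1.19%. On the FPKM + 1 scale a ratio of 2-fold was passed upward by 1.26% and downward by 1.68%.

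In the Toll-like receptor pair, point values of Cxcl1 and Cxcl2 were lower and that of Cxcl3 higher after CpG than after MALP2, with overlapping bounds for all 3. Cxcl1 was at 98.7 FPKM after CpG, against 152 FPKM after MALP2. Cxcl2 was at 332 FPKM after CpG, against 538 FPKM after MALP2. Cxcl3 was at 119 FPKM after CpG, against 81.7 FPKM after MALP2. The FPKM ratios of CpG over MALP2 were 0.649 for Cxcl1, 0.619 for Cxcl2 and 1.45 for Cxcl3. Ranked by the ratio on the FPKM + 1 scale, the genes stood at 11866, 11928 and 507 of 12111. On that scale 1.18% passed 2-fold upward and 0.727% downward. Bounds were apart upward for 0.372% and downward for 0.0578%. No library was replicated, so these orders describe the libraries.

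By point values, the make-up of the summed chemokine level differed between the libraries. Cxcl2 was the largest part in every library, from 55.8% after IL4 to 83.4% after IFNg, against 68.7% untreated. Cxcl1 was 21.9% of the sum after IL1b, 19.7% after MALP2, 18.0% after CpG, 12.5% after TGFb1, 11.3% after IL4, 10.1% after IFNg and 6.20% after TNFa, against 22.7% untreated. Cxcl3 was 32.9% after IL4, 29.8% after TNFa, 21.6% after CpG and 6.44% to 12.7% after the other 4, against 8.59% untreated. The ratio of Cxcl1 to Cxcl3 was thus 2.03 after IL1b and 0.208 after TNFa, against 2.64 untreated. The IL4, TGFb1 and untreated shares rest on sums no higher than 3.40 FPKM, so the untreated shares and ratio are uncertain too. The IFNg shares rest on Cxcl1 at 2.21 FPKM and Cxcl3 at 1.41 FPKM in the library with the fewest reads. No bounds were computed for the shares, and the split between Cxcl2 and Cxcl3 is uncertain because of their shared run.

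**Figure D4:**
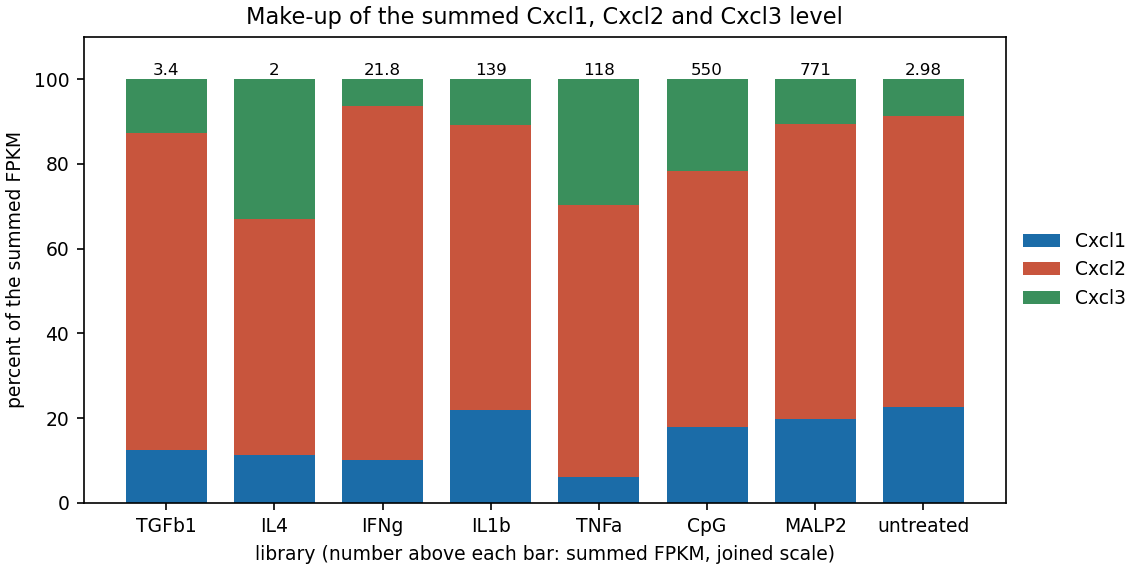
Share of Cxcl1, Cxcl2 and Cxcl3 in their summed FPKM in each library, in percent, with the summed FPKM on the joined scale above each bar. Cxcl3 takes 29.8% after TNFa and 10.8% after IL1b, against 8.59% untreated.

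The neighbours in the cluster did not share these sizes of change. Pf4, platelet factor 4, lies next to Cxcl3 and was at 154 FPKM after MALP2, 118 after IL1b, 106 after TNFa and 93.0 after CpG, against 45.9 FPKM untreated. Its log2 changes were 1.73, 1.35, 1.18 and 1.00 in those libraries and -0.72 after IFNg. Ppbp, the precursor of another ELR chemokine released by platelets, was between 3.07 and 5.57 FPKM after 6 stimuli and 0.645 FPKM after IFNg, against 0.636 FPKM untreated. Cxcl5, an ELR chemokine known mainly from epithelial and stromal cells, was at 1.67 FPKM after IL1b and 0.0719 to 0.544 FPKM after the other 6, against 0.251 FPKM untreated. Cxcl15, known from lung epithelium, was listed at 0 FPKM in all 8 libraries. Mthfd2l, a mitochondrial folate enzyme gene 25286 bp beyond Cxcl2, stayed between 0.493 and 1.29 FPKM in the stimulated libraries, against 0.561 FPKM untreated. The other 4 named genes within 200000 bp of the cluster on either side were at or under 0.13 FPKM throughout. Of the receptors, Cxcr2 was at 1.01 FPKM after IL4 and 0.202 to 0.637 FPKM after the other 6, against 0.129 FPKM untreated. Cxcr1 did not exceed 0.0683 FPKM, and the decoy receptor Ackr1 was listed at 0 FPKM in all libraries.

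Other genes linked to neutrophil recruitment, among them attractant receptors, were counted from a list of 24, chosen with earlier results of these data known. Counted were those with 1 FPKM or more in the stimulated or the untreated library, so the denominators differ between stimuli. Genes under 1 FPKM untreated, such as Csf3, Il6 and Olr1, entered only where raised and could not count as lower. The shares over all genes follow the same rule. At least 2-fold higher were 15 of 21 after MALP2 (median log2 change 3.23), 14 of 21 after CpG (2.96) and 10 of 18 after TNFa (1.60). They were 10 of 19 after IL1b (1.03) and 9 of 19 after IFNg (0.95). At least 2-fold lower were 1 after MALP2, 2 after CpG, 2 after TNFa, 0 after IL1b and 2 after IFNg. After IL4 the counts were 2 higher and 3 lower of 14 (-0.53), and after TGFb1 3 higher and 3 lower of 13 (-0.40). Over all genes tested, 9.86% were 2-fold higher and 11.9% lower after IL4, and 7.15% and 9.15% after TGFb1. The small counts after IL4 and TGFb1 are not read as a result about the list. Of all genes tested, 9.53% were 2-fold higher and 11.7% lower after MALP2, 9.43% and 11.2% after CpG, 8.92% and 10.4% after TNFa, 7.29% and 8.57% after IL1b, and 10.7% and 12.7% after IFNg, with medians between -0.12 and -0.077. Il1b, itself an inflammatory cytokine, was at 3074 FPKM after MALP2 and 3135 FPKM after CpG, against 3.94 FPKM untreated. Tnf was at 668 FPKM after MALP2, 613 after IFNg, 498 after CpG, 185 after IL1b and 114 after TNFa, against 7.12 FPKM untreated. Olr1, a scavenger receptor for oxidised lipoprotein, was between 1.94 and 61.2 FPKM after stimulation, against 0.0341 FPKM untreated. The lowest of the list were Alox5 and its activating protein gene Alox5ap, which begin leukotriene synthesis. Alox5ap was at 1999 to 3135 FPKM after the 7 stimuli, against 5003 FPKM untreated. Alox5 was at 0.778 to 3.42 FPKM after stimulation, against 3.57 FPKM untreated.

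Most of 17 listed NF-kB subunits and regulators were at least 2-fold higher after CpG, MALP2, IL1b, TNFa and IFNg. The subunit gene Rela was not 2-fold higher in any of these libraries. The list was drawn up as NF-kB inducible regulators, with earlier results of these data known. That most were higher is therefore a description and not a test. At least 2-fold higher levels were found for 16 of 17 measured after CpG (median log2 change 2.23), 15 of 17 after MALP2 (2.05), 12 of 17 after IL1b (1.49), 11 of 16 after TNFa (1.46) and 14 of 17 after IFNg (1.70). None was 2-fold lower in those 5 comparisons. Over all genes tested the shares 2-fold higher and lower, also after IL4 and TGFb1, and the medians are those given for the recruitment genes. After IL4, 3 were higher and 7 lower of 17 (-0.63), and after TGFb1 1 was higher and 2 lower of 17 (-0.20). The TGFb1 counts lie near the shares over all genes and are not read as a result about the list. Tnfaip3, the ubiquitin-editing inhibitor A20, was at 233 FPKM after CpG, 189.5 after IFNg, 165 after MALP2, 85.7 after TNFa and 61.9 after IL1b, against 6.66 FPKM untreated. Tnip3, a partner of A20, was at 103.9 FPKM after CpG, 63.6 after MALP2, 55.8 after IL1b and 38.9 after TNFa, against 4.06 FPKM untreated. Traf1, an adaptor of TNF receptors, was at 144 FPKM after CpG, 132 after MALP2, 115.5 after TNFa and 46.0 after IL1b, against 9.99 FPKM untreated. The subunit genes Rela (67.3 to 74.6 FPKM after those 4 stimuli, against 60.7 FPKM untreated) and Rel (5.11 to 11.49 FPKM, against 4.78 FPKM untreated) had the lowest mean changes of the list.

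Regulators of mRNA decay were mixed. Of 12 listed genes, 5 of 12 were at least 2-fold higher after CpG and 5 of 11 after MALP2, with 1 lower in each, and 2 of 12 were higher after IL1b and 2 of 12 after TNFa, with 2 lower after IL1b and 1 lower after TNFa. After IFNg 3 were higher and 0 lower, after IL4 3 higher and 2 lower, and after TGFb1 1 higher and 2 lower. The share of all genes 2-fold lower was 11.2% after CpG and 11.7% after MALP2, close to 1 in a list of this size, and the shares higher were 9.43% and 9.53%. After the remaining stimuli, 7.15% to 10.7% of all genes were higher and 8.57% to 12.7% lower. Beside these shares, the small counts after those stimuli are not read as a result about the list. Dusp1, a phosphatase that switches off p38 kinase, was at 139.5 FPKM after CpG, 73.1 after MALP2, 61.5 after TNFa and 44.3 after IL1b, against 7.89 FPKM untreated. Zc3h12a, the endonuclease Regnase-1, was at 180 FPKM after CpG and 160.2 after MALP2, against 11.8 FPKM untreated, and at 32.7 after IL1b and 18.4 after TNFa. Zfp36, which binds ATTTA sites, was at 617 FPKM after IFNg, 397 after CpG and 312 after MALP2, against 51.5 FPKM untreated, and at 90.8 FPKM after TNFa and 84.7 after IL1b. Its relatives Zfp36l1 and Zfp36l2 had the lowest mean changes of the list over IL1b, TNFa, MALP2 and CpG. Zfp36l2 was at 18.0 FPKM after MALP2 and 22.8 after CpG, against 99.55 FPKM untreated, but at 147 FPKM after TGFb1. Zfp36l1 was at 14.3 FPKM after TNFa, 19.7 after IL1b, 21.0 after CpG and 24.1 after MALP2, against 42.3 FPKM untreated. After IL4, in contrast, Zfp36l1 was at 105 FPKM.

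**Figure D5:**
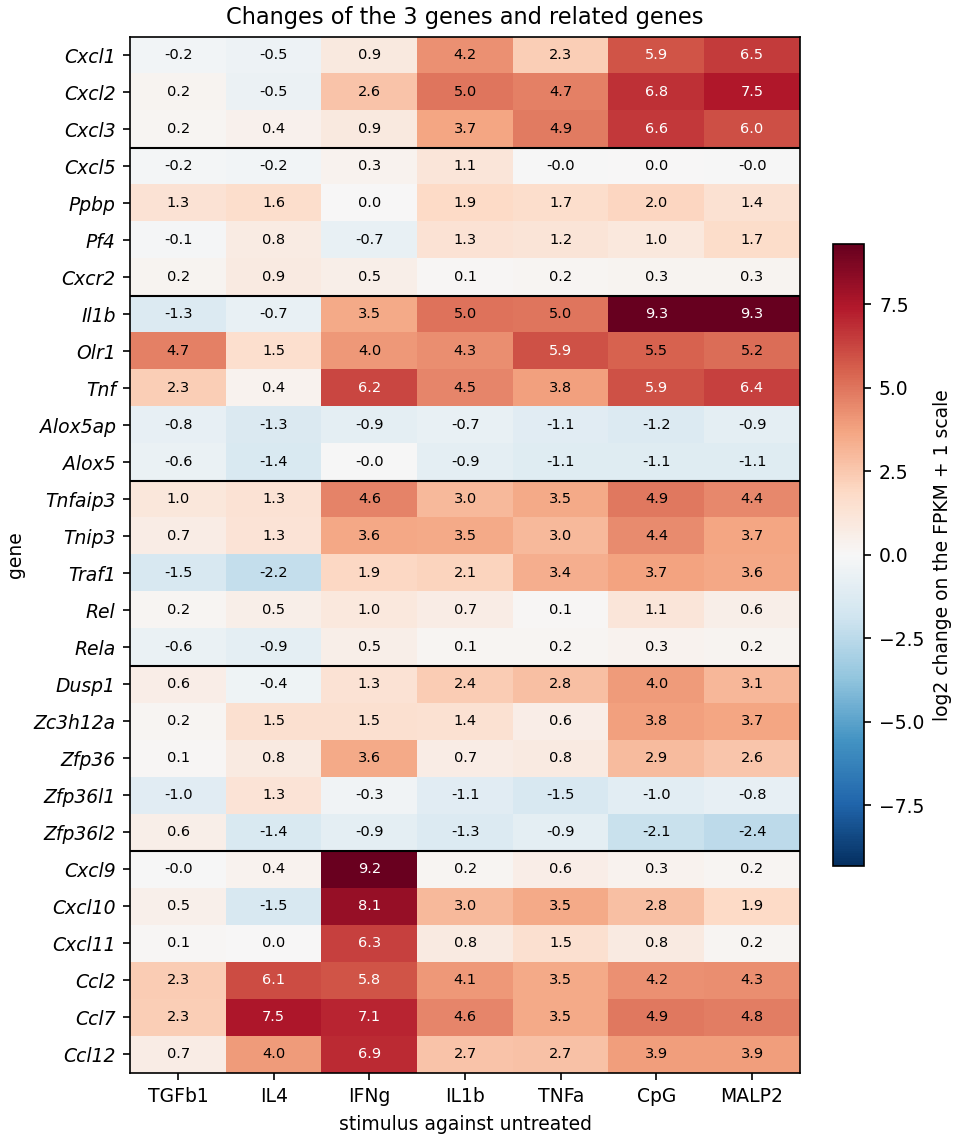
Log2 change on the FPKM + 1 scale after each stimulus against untreated for the 3 genes (top block), cluster neighbours and Cxcr2, recruitment genes, NF-kB regulators, decay regulators, and the CXCR3 ligands with the Ccl2 group (bottom block). The 3 genes reach 5.88 to 7.46 after CpG and MALP2, while Cxcl9, Cxcl10 and Cxcl11 reach 6.35 to 9.18 after IFNg.

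The CXCR3 ligands and the Ccl2 group had other orders of stimuli. Ccl3, Ccl4, Ccl5 and Ccl17, like the 3 genes, had their highest point values after MALP2 and CpG. The CXCR3 ligands, which attract T cells, were highest after IFNg, where Cxcl10 was at 7589 FPKM, Cxcl9 at 694 and Cxcl11 at 87.9, against 27.0, 0.137 and 0.0316 FPKM untreated. After MALP2 and CpG, by contrast, Cxcl9 was at 0.2995 and 0.416 FPKM, while Cxcl2 was at 538 and 332 FPKM. The CXCR3 ligands were not alike in this, since Cxcl10 was also higher than untreated after MALP2, CpG, IL1b and TNFa. Its log2 changes were 1.87, 2.80, 3.03 and 3.54 in those libraries, against 8.08 after IFNg. Cxcl11 was at 0.182, 0.871, 0.791 and 1.91 FPKM after the same stimuli, against 0.0316 FPKM untreated. The monocyte chemokines of the Ccl2 group were highest after IL4 or IFNg, with Ccl2 at 687 FPKM after IL4 and 580 after IFNg, against 9.09 FPKM untreated, and Ccl7 at 986 FPKM after IL4 and 759 after IFNg, against 4.53 FPKM untreated. Ccl3 and Ccl4, which attract monocytes and other leukocytes, were at 2394 and 2036 FPKM after MALP2 and 2575 and 2882 FPKM after CpG, against 134 and 111.9 FPKM untreated. Unlike the 3 neutrophil chemokines, which were at 0.256 to 2.05 FPKM at rest, both were already above 100 FPKM in the untreated library. Ccl5 was at 795 FPKM after CpG, 370 after MALP2 and 19.9 after IL1b, against 23.2 FPKM untreated. Ccl17 was at 6.28 FPKM after CpG and 4.74 after MALP2, and was listed at 0 FPKM untreated. With 1 library per condition these differences between groups of genes could not be tested.

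Likeness of pattern was measured as Pearson's r of log2(FPKM + 1) over the 8 libraries, among 8363 genes with 10 FPKM or more in a library, and is a description with no test, since the points share the same 8 libraries. Cxcl1 and Cxcl2 had an r of 0.97, Cxcl2 and Cxcl3 0.96, and Cxcl1 and Cxcl3 0.94. Of all genes ranked against Cxcl1, Cxcl2 came 9 and Cxcl3 39. The 5 genes most like Cxcl2 were Zfp263 (r 0.99), Zc3h12c, Cd14, Pilra and Derl2. Cd14, the lipopolysaccharide co-receptor, was at 2324 FPKM after MALP2, 1978 after CpG, 1635 after TNFa and 1453 after IL1b, against 425 FPKM untreated. Pilra, an inhibitory receptor, was at 112.1 FPKM after MALP2 and 77.9 after CpG, against 6.27 FPKM untreated. For Cxcl3 they were Dnmt3l (r 0.98), Flrt3, Nadk, Samsn1 and Rab11fip1, of which Flrt3, like Cxcl3, was higher after CpG (11.7 FPKM) than after MALP2 (7.38), against 0.261 FPKM untreated. For Cxcl1 they were Gm4950 (r 0.98), Gm16372, Gm11224, Gsk3a and Tomm22. Their range was narrow, as with Gsk3a, which spanned 31.8 to 42.7 FPKM after stimulation, against 35.0 FPKM untreated, so a high r here says nothing of the size of change.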

How the data were processed

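For the 8 poly(A) RNA-seq libraries, the submitters' processing notes name TopHat 1.3.1, Cufflinks 1.2.1, Cuffdiff 1.2.1 and the mm9 build. Their options, library strandedness, read length and read counts were not given in the sources used here. The authors deposited FPKM with confidence bounds for each stimulated library and the untreated one, per the file headers, and a Cuffdiff q-value with a call (q below 0.05). The level of the bounds is not stated. Genes without status OK were left out of tests, counts and likeness; the marker Lyz2, which lacks it in some tables, is shown as listed. Symbols came from a table that pairs Ensembl identifiers with names, which matched 31840 of 36806 identifiers; promoter sequence came from RefSeq GRCm38.p6, gene starts and transcripts from GENCODE, and loci from the deposited mm9 tables.

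The change was log2 of (stimulated FPKM + 1) over (untreated FPKM + 1), and a gene was tested when it had 1 FPKM or more in either library. A call here means 2-fold or more, or bounds that do not overlap. Tables were joined by their untreated values, which differ by 1 factor per table (tolerance 0.001). The members and gene lists were chosen with earlier results of these data known. Genes named from lists had the 3 highest or 2 lowest mean changes over IL1b, TNFa, MALP2 and CpG; chemokine groups, macrophage and neutrophil markers and neighbours within 200000 bp of the cluster were named from their lists or position, with examples chosen after their values were seen. The counting and likeness steps were tested on simulated data. Python 3.11.15, numpy 2.4.6, pandas 2.3.3, Biopython 1.88 and matplotlib 3.10.9 were used.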

Additional observations from a re-analysis of the deposited data

How the results depend on the processing

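All values here are log2 changes against the untreated library unless another reference is named, and a change of 1 is 2-fold. Upper quartile scaling left all 21 member comparisons within the range of their bounds and on the same side of 2-fold. Centring on the median gene moved 1 of 21, Cxcl1 after IFNg, to 1.01. A pseudocount of 0.1 FPKM moved Cxcl1 to 1.57 after IFNg, -1.26 after IL4 and 5.31 after IL1b, and Cxcl3 to 2.06 after IFNg, 1.10 after IL4, 6.64 after TNFa, 5.41 after IL1b, 7.84 after MALP2 and 8.38 after CpG. A pseudocount of 5 FPKM gave 2.66 for Cxcl1 after IL1b and 4.17 after CpG, and for Cxcl3 2.94 after TNFa, 1.94 after IL1b, 4.02 after MALP2 and 4.53 after CpG; both follow from the untreated levels lying under 1 FPKM. With the nearest bounds, Cxcl1 after TNFa was 0.79, Cxcl2 after IFNg 0.69 and Cxcl2 after TGFb1 -1.08.

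Against the median of the other 6 stimulated libraries, a reference that holds the libraries with high levels, 8 of 21 directions turned. Among comparisons past 2-fold against untreated these were Cxcl1 after TNFa (-1.06), Cxcl2 after IFNg (-2.16) and Cxcl3 after IL1b (-0.27), and under 2-fold they were Cxcl1 and Cxcl3 after IFNg, Cxcl3 after IL4, and Cxcl2 and Cxcl3 after TGFb1. On that reference Cxcl1 was -2.64 after IFNg, -4.02 after IL4, -3.81 after TGFb1, 2.45 after IL1b, 4.73 after MALP2 and 4.11 after CpG. Cxcl2 was -5.34 after IL4, 0.43 after TNFa, -4.60 after TGFb1, 0.98 after IL1b, 3.49 after MALP2 and 2.796 after CpG. Cxcl3 was -3.44 after IFNg, -3.98 after IL4, 1.98 after TNFa, -4.19 after TGFb1, 3.17 after MALP2 and 3.70 after CpG.

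Requiring the authors' call left 1073 of 1623 genes lower after IFNg and 806 of 1212 higher after MALP2. Of the 5 genes most like each member, Spearman's rho kept 1 for Cxcl1, 0 for Cxcl2 and 1 for Cxcl3, and leaving out the untreated library kept 3, 1 and 2. No paired analysis was possible because each condition held 1 library. Levels under about 1 FPKM, as for Cxcl1 and Cxcl3 at rest, limit what the tables can resolve, most of all in the shallow IFNg library.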
